A study of Mus musculus with 4 samples.

Results

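Of the 32285 genes counted in spatial transcriptomes of *Nf1*+/- mouse brain, 10 protein genes of the mitochondrial genome were examined: mt-Nd1, mt-Nd2, mt-Nd3, mt-Nd4, mt-Nd5, mt-Co1, mt-Co2, mt-Co3, mt-Cytb and mt-Atp6. They were chosen by name, and all 10 were present in the files. The other 3 protein genes of that genome, mt-Atp8, mt-Nd4l and mt-Nd6, were followed beside them. Each of the 4 samples was a fresh frozen brain section, and all carried the *Nf1*+/- genotype, in which 1 copy of the neurofibromin gene *Nf1* is mutant in every cell. No wild-type section was analysed here, and neither age, sex, treatment nor the *Nf1* allele is given in the labels. Nothing in the labels ties each section to a mouse of its own, so the spread between sections, and every p-value below, may be partly technical. The study made these sections to compare areas dense in oligodendrocyte precursor cells with other areas, but its outlines of those areas were not used here.

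The mitochondrial genome is a small circular DNA present in many copies per cell, and it encodes core subunits of the enzyme complexes that carry electrons to oxygen and make ATP. The Nd genes encode subunits of complex I, which takes electrons from NADH. mt-Cytb encodes cytochrome b of complex III, the Co genes encode the catalytic core of cytochrome c oxidase (complex IV), and mt-Atp6 encodes a subunit of the proton channel of ATP synthase (complex V). Nearly all other subunits are encoded in the nucleus. The mitochondrial genes are transcribed as long precursors that are cut into shorter RNAs, most of which receive a poly(A) tail. Neurons hold many mitochondria in cell bodies, dendrites and synapses, whereas myelin is poor in them.

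On mouse assembly GRCm38 (mm10), the 10 genes lie on chromosome MT between base 2751, the start of mt-Nd1, and base 15288, the end of mt-Cytb. In the order of the chromosome, mt-Nd1 spans bases 2751 to 3707, mt-Nd2 bases 3914 to 4951, mt-Co1 bases 5328 to 6872 and mt-Co2 bases 7013 to 7696. mt-Atp6 spans bases 7927 to 8607, mt-Co3 bases 8607 to 9390 and mt-Nd3 bases 9459 to 9806. mt-Nd4 spans bases 10167 to 11544, mt-Nd5 bases 11742 to 13565 and mt-Cytb bases 14145 to 15288. These genes have no introns. mt-Nd5 and mt-Nd6 overlap by 14 bases but are read from opposite strands. On the same strand, annotated neighbours overlap by 43 bases for mt-Atp8 and mt-Atp6, by 7 bases for mt-Nd4l and mt-Nd4 and by 1 base for mt-Atp6 and mt-Co3. Counts of these same-strand pairs near the overlap are uncertain. Nuclear copies of mitochondrial sequence also exist, and reads shared with them are uncertain in the same way.

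Spots are small printed areas of the slide, each of which captures RNA from several cells or parts of cells. RNA molecules were counted by their unique molecular identifiers (UMIs). Spots with at least 500 UMIs were used, which left 1431 to 2358 spots and 19261103 to 37001945 UMIs per section, with a median of 8862.5 to 15296.5 UMIs per spot. Section 3 was the shallowest per spot. Between 427 and 1989 spot barcodes were shared by 2 sections, as barcodes mark positions on the slide and are reused. Pairs of sections differed beyond sampling noise, with a chi-square per degree of freedom between 13.6 and 51.8.

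The 10 genes supplied a large part of all captured RNA. They made up 15.5% of all UMIs in section 1, 14.2% in section 2, 13.6% in section 3 and 15.1% in section 4, a mean of 14.6% ± 0.854 (SD, n = 4). Wilson 95% intervals of these shares were at most 0.0160 percentage points to either side and cover counting error only. The sections were thus separated by far more than counting error, although all 4 lay between 13.6% and 15.5%. Single spots ranged much more widely, from 3.30% to 39.9% over all sections, and the median spot held 15.6%, 13.7%, 12.8% and 14.1% in sections 1 to 4. Every spot that was used held UMIs of these genes.

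Summed by complex, the complex IV genes supplied the most UMIs. The 3 cytochrome c oxidase genes together made up 49.5%, 49.1%, 49.6% and 48.5% of the UMIs of the 10 genes in sections 1 to 4. The 5 complex I genes made up 25.1%, 23.6%, 23.9% and 25.2%, mt-Atp6 16.1% ± 0.448 (SD, n = 4) and mt-Cytb 10.3% ± 0.571. The division of mitochondrial RNA among the complexes was thus similar in the 4 sections but not the same, with mt-Cytb between 9.58% and 10.85%. These differences between sections were not tested.

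Levels of single genes are given as UMIs per 1000000 UMIs of a section (CPM). mt-Co3 was the highest, with 31166, 28749, 28337 and 29788 CPM in sections 1 to 4. mt-Co1 measured 27632, 25122, 24051 and 26064 CPM, and mt-Atp6 24608, 23703, 21348 and 24497 CPM. For most of the genes sections 1 and 4 were higher than sections 2 and 3. mt-Cytb did not follow this order, with 14843, 15079, 14774 and 15220 CPM, a spread of 207.1 CPM (SD) around a mean of 14979 CPM. mt-Nd5 was the lowest of the 10, with 1947, 1537, 1671 and 1909 CPM.

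To set genes beside each other, CPM were divided by the annotated length in kilobases. On this scale the order of mean levels was mt-Co3 (37640 CPM per kilobase), mt-Atp6 (34565), mt-Co2 (24173), mt-Co1 (16645), mt-Cytb (13094), mt-Nd3 (12352), mt-Nd2 (10124), mt-Nd1 (9030), mt-Nd4 (7614) and mt-Nd5 (968.2). Across sections the values of mt-Cytb, mt-Nd3 and mt-Nd2 overlapped with those of the next gene in this order. Within each section mt-Nd3 was nevertheless above mt-Nd2, and mt-Nd2 above mt-Nd1. The order of mt-Cytb and mt-Nd3 changed between sections. The levels of mt-Co3 and mt-Atp6 did not overlap, but by a narrow margin, 36145 against 36135 CPM per kilobase. The 3 genes followed beside the 10 were low, at 2413 ± 486.7 (SD, n = 4) CPM per kilobase for mt-Atp8, 1848 ± 286.8 for mt-Nd4l and 50.9 ± 7.94 for mt-Nd6, which is the sole protein gene read from the opposite strand of the genome. The counting reads fragments near the captured poly(A) end, so a level per kilobase is not a molar amount.

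**Figure D1:**
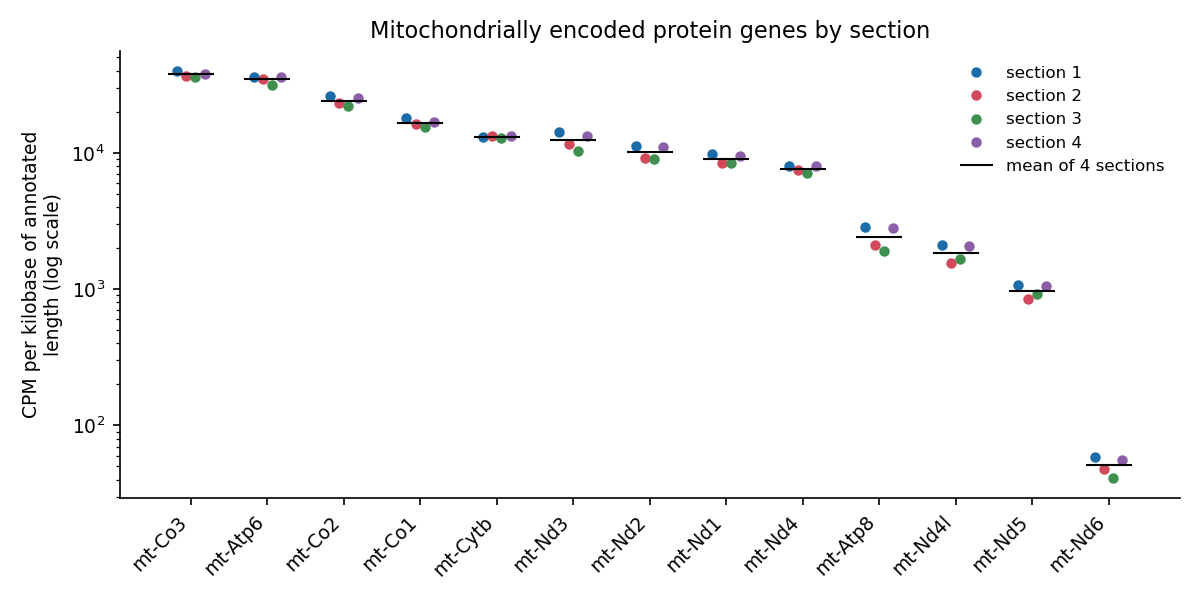
Level of each mitochondrially encoded protein gene in the 4 sections. The vertical axis is CPM per kilobase of annotated length on a log scale, points are sections and the black line is their mean; the 10 genes lie between 968.2 and 37640 CPM per kilobase on average, and mt-Nd6 at 50.9.

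Spots were then divided by marker genes. Neuron-rich spots were the top 10% of a section by Snap25, a synaptic vesicle fusion protein of neurons, and white matter spots the top 10% by Mbp, myelin basic protein of oligodendrocytes, both as a share of UMIs outside the mitochondrial genome. Choroid plexus spots had at least 2% of these UMIs from Ttr, the thyroxine carrier that choroid plexus epithelium secretes. Spots that met more than 1 rule were left out, and spots that met none are called remaining spots. This gave 143 to 232 neuron-rich and 97 to 232 white matter spots per section, and 83 choroid plexus spots in section 1 and 42 in section 4. Sections 2 and 3 held 0 and 1 such spots and gave no choroid plexus value.

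Other markers followed these names. Without the gene used for the rule, the 7 other oligodendrocyte markers were all higher in white matter than in neuron-rich spots (median log2 fold change 3.63), and 6 of 7 other neuronal markers were lower (median -1.33). The 10 other choroid plexus markers were all higher in choroid plexus than in neuron-rich spots (median 6.15). So were all 6 ependymal and all 5 fibroblast markers (medians 5.91 and 3.01). Whether the RNA of these markers came from the plexus itself or from tissue beside it was not tested. Depth moved with the groups as well. The median spot held 11676 to 22276 UMIs among neuron-rich and 3266 to 7066 among white matter spots. In summed spots, fewer cells of a type and less RNA per cell cannot be told apart.

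With the UMIs of each kind of spot summed, neuron-rich spots held the smallest share of mitochondrial RNA in 3 of 4 sections. The 10 genes made up 12.3%, 9.86%, 11.3% and 11.2% of the UMIs of neuron-rich spots in sections 1 to 4. In white matter spots they made up 14.5%, 13.8%, 11.4% and 12.6%. In these sums white matter was the higher of the pair in each section, but in section 3 only by 11.351% against 11.296%. Across sections the ranges overlapped. The exception to neuron-rich spots being lowest was section 1, where the choroid plexus spots were lowest. By the median spot, white matter was above neuron-rich spots in section 1 (14.15% against 12.59%) and section 2 (11.97% against 9.67%). It was below them in section 3 (10.36% against 11.77%) and nearly equal in section 4 (11.47% against 11.48%).

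The remaining spots had the largest share, 16.6%, 14.9%, 14.1% and 15.8% in sections 1 to 4. In every section this exceeded the neuron-rich, the white matter and, where present, the choroid plexus spots of the same section. Choroid plexus spots held 10.8% in section 1 and 12.8% in section 4. In these sums they lay below the neuron-rich spots of section 1 and above those of section 4. By the median spot they were below in both, with 10.98% against 12.59% in section 1 and 9.72% against 11.48% in section 4.

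**Figure D2:**
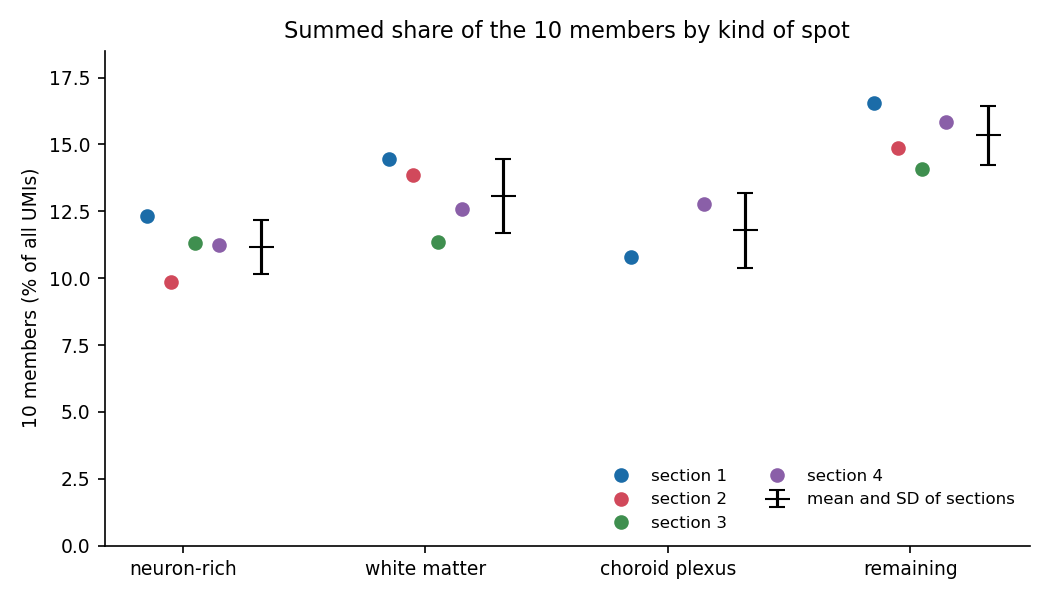
Share of all UMIs that came from the 10 genes, in percent, for each kind of spot, with the spots of a section summed. Coloured points are sections and the black mark is their mean with its SD; remaining spots lie highest in every section (14.1% to 16.6%), and the 2 choroid plexus values (10.8% and 12.8%) lie to either side of the neuron-rich spots of their own section.

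To test genes singly, the UMIs of each kind of spot were added up within a section and these sums were compared in edgeR, with the section as a block. Relative to neuron-rich spots, 9 of the 10 genes were higher in white matter spots and none was lower, while 20.7% of all 11521 genes tested were higher. The median log2 fold change of the 10 genes was 0.38, or 1.299-fold, beside 0.01 for all genes tested. These are levels relative to other RNA, and white matter spots held fewer UMIs of the 10 genes in number. With 232 spots of each kind in section 2, the sums were 168885 in white matter and 462408 in neuron-rich spots. With 229 of each in section 3, they were 92370 and 316904. mt-Nd3 measured 3394, 2391, 2783 and 2999 CPM in the neuron-rich spots of sections 1 to 4 and 4782, 4093, 3002 and 4094 CPM in white matter. It was higher in white matter in each section, though the lowest white matter value lay within the neuron-rich range. Its log2 fold change was the highest of the 10, at 0.58 ± 0.105 (SE; edgeR adjusted p = 4.4e-05).

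mt-Nd2, another complex I gene, rose by a log2 fold change of 0.43 ± 0.101 (edgeR adjusted p = 0.0011), with 8773, 6246, 7551 and 7933 CPM in neuron-rich and 11171, 9240, 7527 and 9836 CPM in white matter spots. Its values rose in 3 of 4 sections and were nearly equal in section 3. mt-Nd4 and mt-Nd5, also of complex I, rose by 0.41 ± 0.102 and 0.42 ± 0.102. mt-Nd1 rose less, by 0.29 ± 0.107 (edgeR adjusted p = 0.029), and in section 3 it was lower in white matter, with 6256 against 7021 CPM.

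Among complex IV genes, mt-Co3 rose by 0.39 ± 0.0973 (edgeR adjusted p = 0.0020), from 25216, 20498, 23273 and 22480 CPM to 29792, 28741, 24731 and 26495 CPM. mt-Co2 rose by 0.37 ± 0.104. mt-Co1 did not pass the test, with a log2 fold change of 0.24 ± 0.0997 (edgeR adjusted p = 0.058). Its CPM were 23785, 18867, 21236 and 20926 in neuron-rich and 25653, 24724, 20371 and 21218 in white matter spots, higher in white matter in 3 of 4 sections. mt-Cytb of complex III rose by 0.33 ± 0.0967 and mt-Atp6 of complex V by 0.32 ± 0.0991. The 3 genes followed beside them rose too, mt-Nd4l by 0.84 ± 0.113, mt-Nd6 by 0.66 ± 0.221 and mt-Atp8 by 0.65 ± 0.122. The value of mt-Nd6 rests on 38, 24, 13 and 12 UMIs in the white matter spots of sections 1 to 4. In section 3 mt-Nd6 was lower in white matter, with 16.0 against 17.1 CPM.

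The difference was uneven between sections, and its size varied with the depth setting and the scaling. For the 10 genes summed, the log2 ratio of white matter to neuron-rich spots was 0.36, 0.61, 0.10 and 0.31 in sections 1 to 4 after scaling, and 0.23, 0.49, 0.01 and 0.16 on total UMIs. Without section 1 or without section 2, 5 genes passed, beside 2061 of 11931 and 2139 of 11200 genes called higher. With scaling to total UMIs 6 passed, beside 1979 of 11521 genes called higher. The median of all genes then moved to -0.11 and that of the 10 was 0.26. When white matter and neuron-rich spots of like depth were matched, only 17 to 31 pairs per section remained. None of the 10 passed then, beside 439 of 3572 genes called higher, with a median log2 fold change of 0.27. With the spots of the first groups thinned to 5000 UMIs each, and shallower ones left out, the median was 0.40. Among spots with at least 5000 UMIs, where the groups were drawn anew, all 10 passed, with a median of 0.55. All genes called higher there were 2084 of 12086. Of the white matter spots first used, 98 of 129, 116 of 232, 49 of 229 and 27 of 97 reached that depth. Markers of other cells were also higher in white matter spots. All 6 ependymal (median log2 fold change 2.10), all 6 microglial (1.28) and all 6 astrocyte markers (0.93) were, as were 6 of 10 choroid plexus (1.64), 3 of 5 fibroblast (1.36) and 2 of 5 endothelial markers (0.52). Summed levels were 62.3 to 111.8 against 17.2 to 33.5 CPM for ependyma, 469.8 to 654.9 against 222.8 to 290.1 CPM for microglia and 2443 to 3384 against 2026 to 2463 CPM for astrocytes. The part of these cells in the result was not tested.

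The contrast of remaining with neuron-rich spots was added after the shares above had been seen. All 10 genes were higher in remaining spots, against 13.1% of 13206 genes tested, and the median log2 fold change was 0.53, or 1.44-fold. mt-Nd3 again had the highest value, 0.69 ± 0.0919 (edgeR adjusted p = 2.2e-06), with 5305, 4313, 3748 and 4919 CPM in the remaining spots of sections 1 to 4, all above its neuron-rich values. mt-Co1 had the smallest, 0.37 ± 0.0880 (edgeR adjusted p = 0.0023), with 29264, 26086, 24648 and 27177 CPM, which also did not overlap with the neuron-rich values. All 10 passed again when 140 to 231 pairs of spots per section were matched on depth, with a median of 0.39, and when any section was left out. Markers differed between these spots too. In remaining spots 6 of 7 neuronal markers were lower and 1 higher. All 7 oligodendrocyte (median 0.44), all 6 ependymal (1.497) and all 6 microglial markers (0.48) were higher, as were 4 of 6 astrocyte (0.40), 4 of 5 fibroblast (1.26), 3 of 10 choroid plexus (0.54) and 2 of 5 endothelial markers (0.26), and the part of these cells was not tested.

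Remaining and white matter spots were not separated by the test. None of the 10 genes passed in edgeR or in DESeq2, although 5 had an unadjusted p under 0.05 in edgeR, and 13.3% of all genes were called higher in remaining spots. The log2 fold changes lay between 0.10 and 0.22, and the share was higher in remaining spots in 4 of 4 sections. With scaling to total UMIs 8 of the 10 passed, beside 2346 of 13206 genes called higher. Among spots with at least 5000 UMIs, with the groups drawn anew, the median was 0.01. Without section 2, 1 passed, beside 1644 of 13003 genes called higher.

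**Figure D3:**
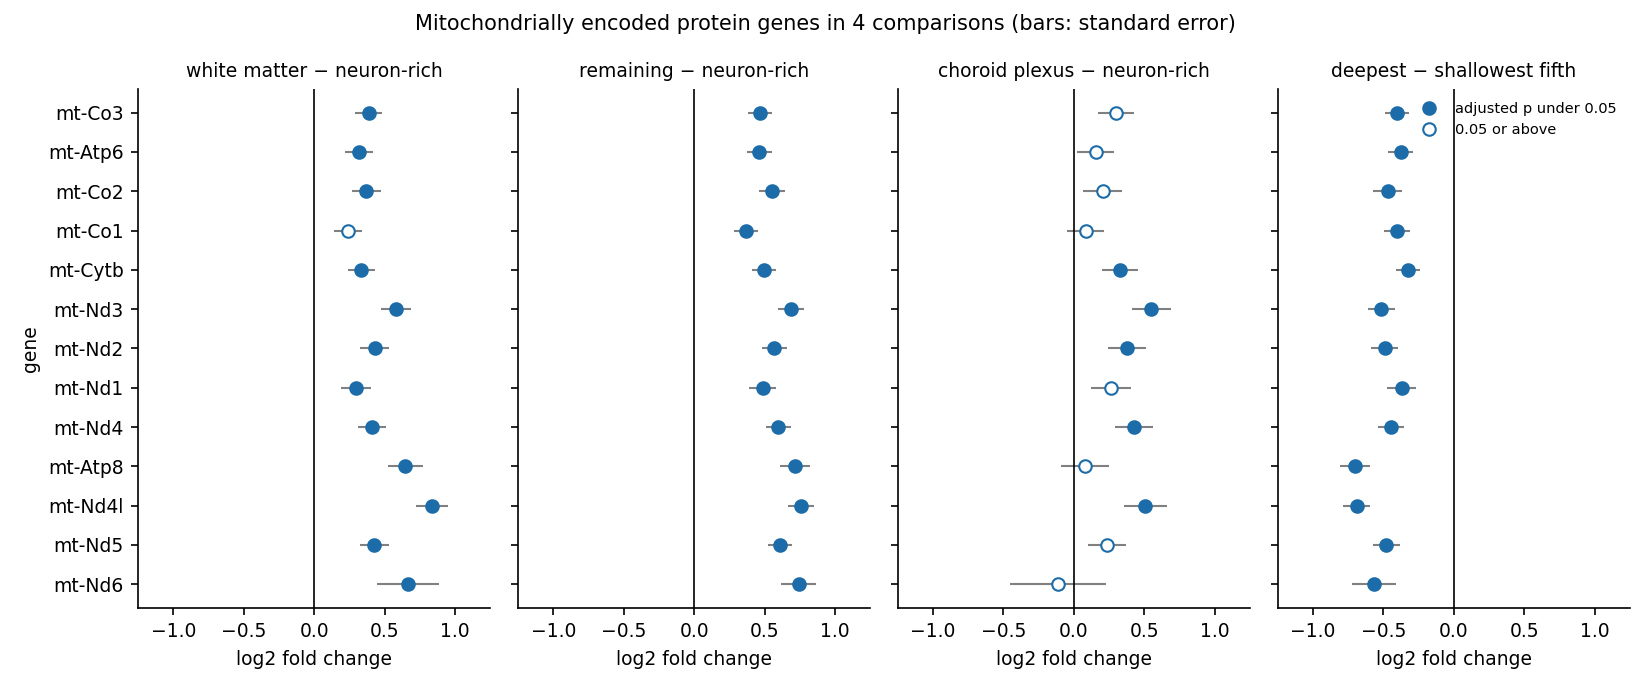
Log2 fold change of each mitochondrially encoded protein gene in 4 comparisons, with its standard error. Filled points passed an edgeR adjusted p of 0.05. The 10 genes are higher in white matter (median 0.38) and in remaining spots (0.53) than in neuron-rich spots, except mt-Co1 in white matter, which did not pass. They are lower in the deepest 20% of spots (median -0.42). Depth there is UMIs outside the mitochondrial genome, an order that favours a fall by arithmetic.

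In choroid plexus spots, 4 of the 10 genes were higher than in neuron-rich spots and none was lower, against 17.5% of all genes higher and 13.4% lower. These were mt-Nd3 (log2 fold change 0.55 ± 0.138, edgeR adjusted p = 0.0026), mt-Nd4 (0.42 ± 0.134), mt-Nd2 (0.38 ± 0.133) and mt-Cytb (0.33 ± 0.127, edgeR adjusted p = 0.0496). The other 6 had values between 0.09 and 0.30. These calls rest on 2 sections, whose summed shares opposed each other. On total UMIs the log2 ratio of the 10 genes summed was -0.19 in section 1 and 0.18 in section 4. After the scaling used for the calls it was 0.03 and 0.44. Without section 1, 2 or 4 the number that passed was 2, 1 and 0. mt-Nd4 measured 7788 CPM in choroid plexus against 8077 CPM in neuron-rich spots of section 1, and 10070 against 7587 CPM in section 4. After scaling its log2 ratio was above 0 in both sections, at 0.17 and 0.67. mt-Nd3 was higher in choroid plexus spots of both sections, with 3762 against 3394 CPM and 4209 against 2999 CPM.

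With total-UMI scaling none of the 10 passed, and the median of all genes moved to -0.20 while that of the 10 was 0.04. Ttr alone supplied 141677 and 137369 CPM of the choroid plexus spots, which lowers every other gene on that scale. With a stricter rule of 5% Ttr none passed either, and the median was -0.02. Between choroid plexus and white matter spots none of the 10 passed in edgeR or DESeq2 and none had an unadjusted p under 0.05 in edgeR, against 14.5% of all genes called in either direction. Their log2 fold changes lay between -0.19 and 0.01, but these values average 2 opposed sections. For the 10 genes summed, the log2 ratio of choroid plexus to white matter was -0.32 in section 1 and 0.14 in section 4, and the median over the 10 was 0.13 without section 1 and -0.30 without section 4. At the 5% rule 5 of the 10 were lower in choroid plexus, beside 859 of 11351 genes called lower. With neuron-rich and white matter spots taken as the top 20%, 4 were, beside 853 of 13279 genes.

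Each gene was also measured relative to the sum of the 10. None of the 10 passed in white matter against neuron-rich, choroid plexus against neuron-rich or choroid plexus against white matter spots, and none had an unadjusted p under 0.05 in edgeR (DESeq2 was not run on this scale). Of all genes, 46.2%, 27.1% and 13.4% passed, but this scale holds the 10 near 0 and shifts every other gene, with 1267 genes higher and 4058 lower in white matter against neuron-rich spots, so these shares are no measure for the 10. Missing the threshold does not show that the proportions were equal. mt-Nd3 had the widest relative difference from neuron-rich spots, 0.23 ± 0.127 in white matter and 0.30 ± 0.168 in choroid plexus. Its log2 ratio of white matter to neuron-rich spots exceeded that of the summed genes in 4 of 4 sections, with 0.62, 0.90, 0.21 and 0.59 in sections 1 to 4. mt-Co1 measured -0.11 ± 0.105 and -0.17 ± 0.139, and mt-Nd4 0.06 ± 0.116 and 0.17 ± 0.153. mt-Co1 made up 19.3%, 19.1%, 18.8% and 18.6% of the 10 genes' UMIs in neuron-rich and 17.8%, 17.9%, 17.9% and 16.9% in white matter spots, lower in white matter in 4 of 4 sections and with no overlap. Outside the 10, mt-Nd4l rose relative to the sum in white matter by 0.49 ± 0.155 (edgeR unadjusted p = 0.0016). Its edgeR adjusted p of 0.0050 depends on the shift of the other genes on this scale.

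Nuclear genes of the same complexes were called lower about as often as other genes in white matter, and seldom higher. Of 75 listed nuclear genes of complexes I to V, 74 were tested. In white matter against neuron-rich spots 1 was higher and 17 were lower, which is 23.0% lower beside 19.2% of all genes, with a median log2 fold change of -0.16. DESeq2 called 1 higher and 11 lower. The higher gene was Ndufa3, an accessory subunit of complex I (0.30 ± 0.0987). The lower ones included Ndufa10 and Ndufb6 of complex I (-0.57 ± 0.115 and -0.46 ± 0.109), Cyc1 and Uqcrq of complex III (-0.27 ± 0.109 and -0.24 ± 0.0949), Cox5a and Cox7b of complex IV (-0.60 ± 0.102 and -0.53 ± 0.100) and Atp5g1 and Atp5a1 of ATP synthase (-0.35 ± 0.0992 and -0.28 ± 0.0986). Complex II, whose 4 listed genes are all nuclear, had a median of 0.03.

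In remaining against neuron-rich spots, where all 10 mitochondrial genes were higher, the test called none of the 74 nuclear genes higher (0 at an unadjusted p under 0.05 in edgeR, 0 in DESeq2) and 2 lower (4 in DESeq2), beside 15.3% of all genes lower. Cox5a of complex IV was among these (-0.23 ± 0.0839). The median of the 74 was -0.02. In remaining against white matter spots 20 of the 74 were higher (27.0% beside 13.3% of all genes), with Ndufa10 at 0.40 ± 0.0907 and Cox7b at 0.39 ± 0.0892. In choroid plexus against neuron-rich spots 3 were higher (4.05% beside 17.5% of all genes) and 6 lower (8.11% beside 13.4% of all genes). Among the higher were Ndufv3 of complex I (0.53 ± 0.131) and Sdhc of complex II (0.70 ± 0.180). Among the lower were Cox6a1 (-0.58 ± 0.133) and Ndufb4 (-0.52 ± 0.145).

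Of 20 listed genes that transcribe, process or regulate mitochondrial RNA, 19 were tested in white matter against neuron-rich spots, where 2 were higher and 1 lower. These are smaller shares than the 20.7% and 19.2% of all genes. Mterf1a, of the mitochondrial transcription termination factor family, was higher (0.95 ± 0.332), as was Gabpa, a subunit of a nuclear regulator of respiratory genes (0.82 ± 0.274). Ppargc1a, which encodes the coactivator PGC-1alpha, was lower (-0.53 ± 0.214, edgeR adjusted p = 0.0496). In remaining against neuron-rich spots 1 of 20 was higher and 1 lower, beside 13.1% and 15.3% of all genes. These were Gabpa (0.44 ± 0.152) and Ppargc1a (-0.39 ± 0.109).

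Spots were also put in order by marker level and cut into 10 bins of equal size, as a description. By Snap25, the share of the 10 genes did not follow a straight line. In section 1 it rose from 12.02% in bin 1, the lowest, to 17.6% in bin 5 and fell to 12.3% in bin 10. In section 3 it went from 13.3% over 15.4% in bin 5 to 11.3%, and in section 4 from 13.2% over 19.99% in bin 4 to 11.2%. Section 2 lacked the low start, with 17.0% in bin 1 and 9.86% in bin 10. In all 4 sections the share was lower in bin 10 than in bin 6.

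By Mbp the share changed less. It lay between 12.5% and 16.4% over bins 1 to 9. Bin 10 holds the white matter group and the spots left out of it for meeting another rule, which were 46 of its 143 spots in section 4, 24 of 153 in section 1, 3 of 235 in section 2 and 0 in section 3. It held 13.8%, 13.8%, 11.4% and 12.5%, and in sections 1, 3 and 4 it was the lowest bin. The bins differ in depth as well, from a median of 3266 UMIs per spot in Mbp bin 10 of section 3 to 22215 in Snap25 bin 10 of section 1.

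**Figure D4:**
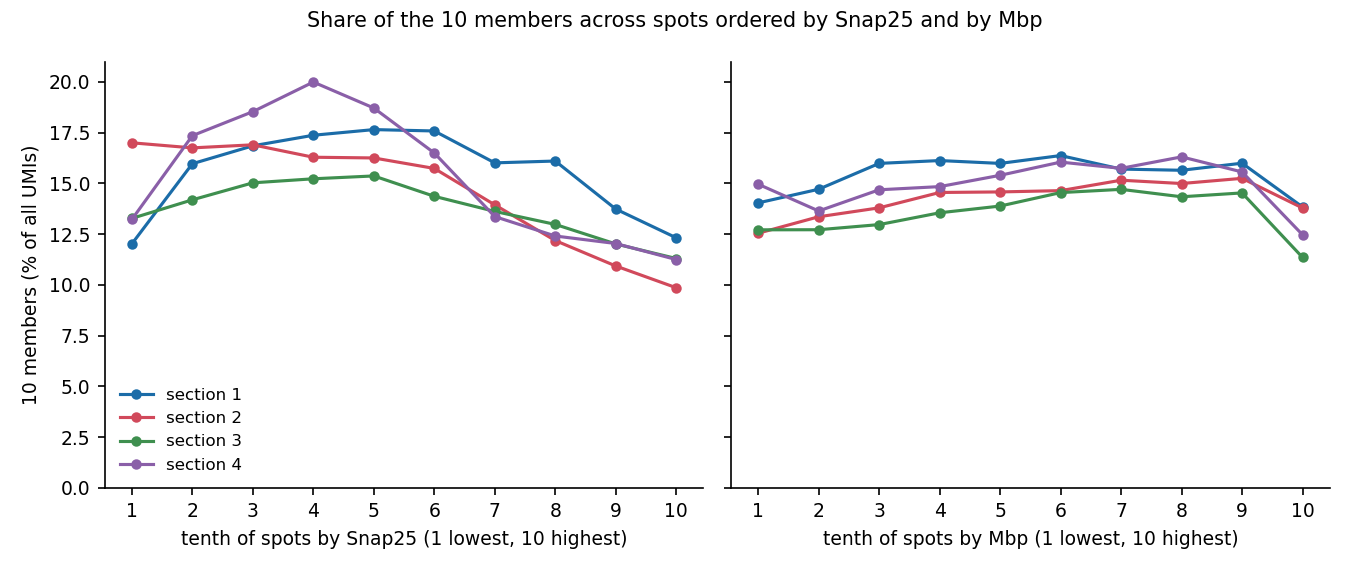
Share of all UMIs from the 10 genes, in percent, in 10 equal bins of the spots of each section ordered by Snap25 (left) and by Mbp (right), 1 being the lowest. Lines are sections; Snap25 bin 10 holds 9.86% to 12.3%, and the peak lies in bin 4 or 5 in sections 1, 3 and 4 and in bin 1 in section 2.

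The share of mitochondrial RNA also went with the depth of a spot. Depth was taken as UMIs outside the mitochondrial genome, so that the 10 genes could not set the order directly. A spot with few other UMIs nevertheless has a higher mitochondrial share by arithmetic. Each section was cut into 5 bins of spots by depth. From the shallowest to the deepest bin the mean share over 4 sections was 16.1%, 16.8%, 15.3%, 14.7% and 12.8%. The deepest bin was the lowest in each section, with 12.9%, 11.8%, 12.7% and 13.9%, whereas the shallowest was the highest only in section 2, at 16.9% against 16.8% in the next.

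All 10 genes were lower in the deepest than in the shallowest bin, against 14.8% of the 13064 genes tested. The order by other UMIs favours such a fall by arithmetic, so these p-values may partly reflect the order itself. The log2 fold changes lay between -0.32 for mt-Cytb (± 0.0836 SE, edgeR adjusted p = 0.0098) and -0.51 for mt-Nd3 (± 0.0983, edgeR adjusted p = 0.0014), with a median of -0.42. On total UMIs, the log2 ratio of the 10 genes summed was -0.46, -0.51, -0.11 and -0.19 in sections 1 to 4. Of the single genes among the 10, only mt-Nd1 was above 0 in any section, at 0.04 in section 3. mt-Atp8, mt-Nd4l and mt-Nd6 fell by 0.70, 0.69 and 0.56, although mt-Nd6, which has few UMIs, was above 0 in section 3 (0.21 on total UMIs). Of the 74 nuclear genes, 6 were higher and 1 lower in the deepest bin, which is 8.11% and 1.35% beside 13.2% and 14.8% of all genes.

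These bins differed in tissue. White matter spots made up 30.0% to 44.7% of the shallowest and at most 0.218% of the deepest bin, and neuron-rich spots 1.06% to 4.87% and 18.6% to 29.0%. Accordingly all 7 oligodendrocyte markers were lower (median -2.53) and all 7 neuronal markers higher (median 0.66) in the deepest bin, and all 6 ependymal, all 6 astrocyte, all 6 microglial and all 5 fibroblast markers were lower. Without white matter and choroid plexus spots all 10 genes were still lower, with a median of -0.60. The bins still differed in tissue then. Neuron-rich spots made up 2.59% to 6.51% of the shallowest and 19.4% to 33.8% of the deepest of them. With depth taken as all UMIs, 1 of the 10 passed, beside 1895 of 13093 genes called lower, and the median was -0.20. In that order the deepest bin of section 3 held 13.3% and the shallowest 12.7%. In the first order, 6 passed without section 2 (1617 of 12933 genes called lower) and 7 without section 1 (1790 of 13064).

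**Figure D5:**
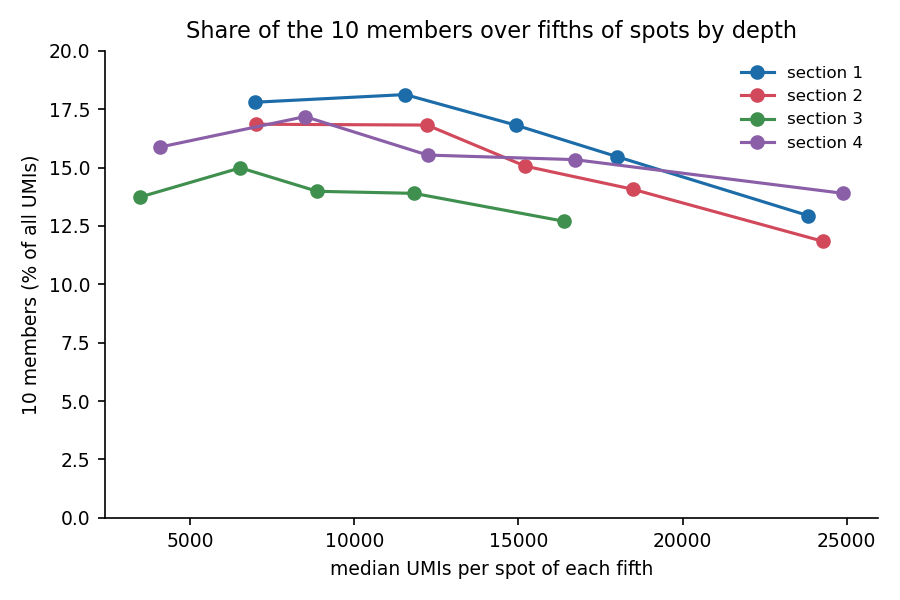
Share of all UMIs from the 10 genes, in percent, against the median UMIs per spot in 5 bins of the spots of each section ordered by UMIs outside the mitochondrial genome. Lines are sections, and the deepest bin is lowest in all 4 (11.8% to 13.9%). This order favours a lower share in deep bins by arithmetic.

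Within 1 kind of spot the relation differed from kind to kind. Neuron-rich spots were split at the middle by depth. The deeper spots held 11.5%, 9.84%, 10.7% and 11.2% and the shallower ones 13.8%, 9.89%, 12.5% and 11.4% in sections 1 to 4, a log2 ratio of -0.26, -0.01, -0.23 and -0.03. In remaining spots the ratio was -0.28, -0.30, -0.14 and -0.17. In white matter spots it was -0.05, 0.34, 0.10 and -0.01, so that the deeper white matter spots of sections 2 and 3 held the larger share. Over all spots of a section Spearman's rho of share with depth was -0.30, -0.25, -0.03 and -0.13 in sections 1 to 4, and -0.18, -0.14, 0.07 and -0.04 with all UMIs as depth. Within remaining spots it was -0.37, -0.36, -0.10 and -0.26, in each section further below 0 than over all spots. Within neuron-rich spots it was -0.24, -0.01, -0.27 and -0.18, and within white matter spots -0.12, 0.29, 0.12 and 0.02. With all UMIs as depth, rho was -0.22, -0.22, 0.003 and -0.15 within remaining spots. Within neuron-rich spots it was then -0.16, 0.07, -0.20 and -0.13, and within white matter spots -0.03, 0.36, 0.18 and 0.11. Spots of a section share a library, and these correlations are a description.

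Of 3452 genes outside the mitochondrial genome with a mean of at least 50 CPM, those whose levels most resembled the summed 10 genes were found by Pearson's r over the 14 sums of a section and a kind of spot, each in log2 CPM relative to its section mean. The 5 highest were Bex1 (r = 0.95), Rpl22l1 (0.89), Ppp2r2a (0.87), Rap1gap (0.87) and Fam171a1 (0.87). Bex1, an adaptor protein of neurons, measured 124.1, 98.1, 122.3 and 70.2 CPM in neuron-rich and 199.99, 164.5, 199.0 and 141.4 CPM in remaining spots of sections 1 to 4. The 5 lowest were the transcription factor genes Nfic (-0.93) and Nfix (-0.91), then Ccng1 (-0.90), Nudt4 (-0.89) and Cuta (-0.83). Nfic measured 56.1, 74.8, 53.5 and 82.6 CPM in neuron-rich and 31.4, 39.8, 37.1 and 48.6 CPM in remaining spots. The 14 points share 4 libraries, and the order is a description.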

How the data were processed

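Per the labels, poly(A) RNA of 10 µm fresh frozen sections was captured on Visium slides, and Space Ranger was run on the reads by the authors (version 1.3.1 per the file headers, build mm10 per the submitters' processing notes). The deposited values are raw UMI counts per gene and spot, not normalized. Sections were numbered in accession order. The members, marker lists and gene lists were chosen with earlier results of these data known. Coordinates and lengths are from RefSeq (GRCm38.p6), where all 10 genes matched by name. No mitochondrial sequence was printed.

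From the counts, CPM are UMIs per 1000000 of a sum. The sums were fitted in edgeR 4.0.16 (R 4.3.3) by its quasi-likelihood method after TMM scaling and filterByExpr, with section as a blocking term. P-values were adjusted by Benjamini-Hochberg over every gene tested, at a threshold of 0.05. Spot groups of 1 section share tissue, which pairs them; deviations of same-section sums correlated at 0.17 to 0.27 over 11493 genes. A standard error is |log2 fold change| over the square root of the F statistic. Neuron-rich spots are shared by 3 comparisons, which are therefore not independent. Genes were named by rule: the 10 members, the other 3 mitochondrial protein genes, the 3 marker genes, up to 2 called genes per direction and nuclear list, and the 5 genes most and least like the members; a gene that the rule also named is not reported here. On simulated counts with 200 genes changed by a log2 fold change of 1, the test called 139 of them, none in the wrong direction, and 8 unchanged genes in white matter against neuron-rich spots (11493 genes), and 160 and 17 for depth (13038 genes). Alternatives covered the marker rules, depth (thinning to 5000 UMIs, matching within 10%), scaling, filter, DESeq2 1.42.0, the block and each section left out. The comparisons with remaining spots, and counting overlap spots as choroid plexus, were added after seeing the data.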

Additional observations from a re-analysis of the deposited data

How the results depend on the processing

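The mean share of the 10 genes stayed within 1 SD under every alternative run, between 14.3% and 14.9% when 1 section was left out. In white matter against neuron-rich spots 6 to 10 genes were called higher under the alternatives other than matching on depth (0, with 749 genes called in all) and leaving out 1 section (5 to 10), and none was lower in any. The count of all genes called, 4605, was 2301 with thinned spots. The block (section) changed the count of the 10 genes from 9 to 7 here when removed, and no count of the 10 by over 1.5 times in any comparison.

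Choroid plexus against neuron-rich spots depended most on the setting. The number called higher was 1 with the top 20% of spots, 0 with Ttr at 5%, 2 with at least 3 choroid plexus markers, 0 with total-UMI scaling, 1 with DESeq2, 0 with scaling to UMIs outside the mitochondrial genome, 1 with only these groups in the fit, and 0 to 5 when 1 section was left out. With Ttr at 5% the log2 fold change turned negative for mt-Nd5 (-0.248), mt-Co1 (-0.268), mt-Co2 (-0.236), mt-Co3 (-0.0582) and mt-Atp6 (-0.217). With total-UMI scaling it did for mt-Nd5 (-0.00086), mt-Co1 (-0.151), mt-Co2 (-0.0319) and mt-Atp6 (-0.0821), and with scaling to UMIs outside the mitochondrial genome for mt-Co1 (-0.148), mt-Co2 (-0.0294) and mt-Atp6 (-0.0796). mt-Co1 was also below 0 with the top 20% (-0.0351), without the filter (-0.00539) and with only these groups (-0.00795). When 1 section was left out, mt-Nd1 ranged from -0.0166 to 0.495, mt-Co1 from -0.151 to 0.293, mt-Co2 from -0.0180 to 0.389 and mt-Atp6 from -0.0326 to 0.319, each lowest without section 4. All genes called numbered 1623 when thinned and 1770 to 3657 when 1 section was left out.

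In choroid plexus against white matter spots 4 genes were called lower with the top 20%, 5 with Ttr at 5% and 1 among spots with at least 5000 UMIs. All genes called numbered 664 there when thinned and 698 to 1719 when 1 section was left out. In remaining against white matter spots 8 were called higher with total-UMI scaling, and 0 to 1 when 1 section was left out. All genes called there were 1910 among spots with at least 5000 UMIs and 2329 to 3435 when 1 section was left out. In remaining against neuron-rich spots all 10 were higher under every alternative run, with 2022 genes called in all without the block. For depth, 1 gene was called lower with depth by all UMIs, 6 to 10 when 1 section was left out, and 10 otherwise, with 2405 to 3255 genes called in all when 1 section was left out. Total-UMI scaling put the median of all genes at 0.11 for depth. The cause of these changes was not tested.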
